A study of Mus musculus with 6 samples.

Results

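The genes described here are 8 determinants of stem cell fate, Numb, Numbl, Msi1, Msi2, Notch1, Notch2, Rbpj and Hes1, chosen by name from the 26216 gene names of the series and followed in LT/ST-HSCs that lacked the lymphotoxin-β receptor (LTβR, gene Ltbr). All 8 were found in the files, and all 8 lay in the upper 50% of names by mean value, the filter for testing, which kept 13108 names.

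LT/ST-HSCs, the long-term and short-term hematopoietic stem cells, were compared between 3 Ltbr-/- and 3 Ly5.1 samples by RNA sequencing, to learn which genes depend on LTβR in these cells. Ltbr-/- cells carried CD45.2, and the Ltbr-proficient Ly5.1 cells carried CD45.1, the 2 forms of the surface protein CD45 by which donors are told apart. LSKs, the lineage-negative stem and progenitor cells of the bone marrow, of both donors had been given together to lethally irradiated Ly5.1/Ly5.2 recipients, and HSCs of both genotypes were sorted 6 weeks later from these mixed chimeras as Lin-, Annexin-V-, Sca1+, c-kit+, CD150+ and CD48- cells. Cells of several chimeras were pooled into each replicate. Donors were 13, 10 and 10 to 13 weeks old for Ltbr-/- replicates 1, 2 and 3 and 7 to 13 weeks for each Ly5.1 replicate, so age and genotype were not fully separated, and the null allele was carried by the donor animal as a whole. Recipient cells carried both CD45 forms, by which they differ from either donor.

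Numb is an adaptor protein that can be passed unequally to the daughters of a dividing cell and antagonizes Notch by promoting its endocytosis and degradation, and Numbl is its close relative. Musashi proteins bind RNA and repress the translation of target transcripts, among which Numb is the best known, and Msi2 is the Musashi associated with hematopoietic stem cells. Notch receptors, once cleaved after ligand binding, release an intracellular domain that joins the DNA-binding protein Rbpj in the nucleus and switches on targets such as Hes1, a transcriptional repressor.

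Values are the deposited signal, a regularized and normalized expression value in which changes of weakly expressed genes are drawn together, so that their fold changes are understated. Ltbr, the targeted gene, had a signal of 24.2, 26.4 and 23.1 in the Ltbr-/- samples and 564, 549 and 522 in the Ly5.1 samples, a log2 fold change of −4.47 (adjusted p = 2.15e-32 by limma). Among 14 HSC marker genes, all 14 passed the filter, 2 were higher past the test (Gata2 and Runx1) and 2 were lower (Ly6a and Meis1). The HSC calls are 14.3% of the list on each side, against 10.6% higher and 4.18% lower over all tested names. The same shares over all tested names stand beside the marker counts that follow. Cd48, which the gate excludes, had a signal between 20.1 and 28.9 in the 6 samples. All 10 granulocyte markers were lower past the test in Ltbr-/- samples (summed signal 43940 to 44510 against 57570 to 62270 in Ly5.1). Of 6 tested mast cell and basophil markers, 2 were higher past the test, Cma1 (log2 fold change 1.32) and Cpa3 (0.56), 3 were below 0, Mcpt8 (−0.22), Fcer1a (−0.10) and Ms4a2 (−0.04), and Tpsb2 was listed at 1; the summed signal of 7092 to 7483 against 3423 to 4028 is mostly that of Cma1. T cell markers (0 of 3 tested past the test, Cd3e and Cd8a under 1 in every sample) and stromal and endothelial markers (0 of 5) gave no call. Past the test were 2 of 5 multipotent progenitor markers (lower), 1 of 2 B cell markers, 2 of 7 monocyte and macrophage markers and 1 of 8 erythroid markers (higher), and of 5 megakaryocyte markers 1 was higher and 1 lower. The part of these other cell types in the values of the 8 genes was not tested, and fewer cells of a type and less RNA per cell cannot be told apart in such bulk samples.

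**Figure D1:**
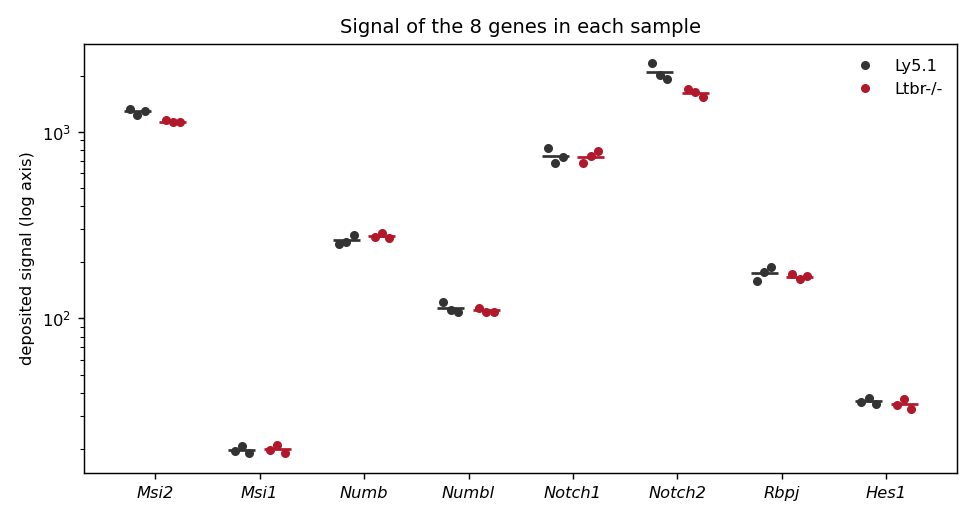
Deposited signal (log axis) of the 8 genes in each of the 3 Ly5.1 (black) and 3 Ltbr-/- (red) samples, with the group mean as a bar. The groups were apart for Notch2 and Msi2 and overlapped for the other 6 genes.

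Of the 8 genes, 1 passed the test, an adjusted p under 0.05, and it was lower in Ltbr-/- HSCs: Notch2. This count stands against 4.18% of all tested names that were lower past the test, 10.6% that were higher and 14.8% in either direction. None of the 8 also reached a fold of 1.5, which 2.78% of the names did. The groups did not overlap in Notch2 and Msi2, both lower in Ltbr-/-, against 13.5% of all names that were lower without overlap, and the same 2 genes had an unadjusted p under 0.05, against 11.4% of all names on that side. The log2 fold change was below 0 in 6 of the 8, against 53.6% of all tested names, with a median of −0.05 over the 8 and of −0.01 over all tested names.

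Notch2, one of the Notch receptors, lies on the plus strand at chr3:98013527-98150361 (GRCm38). Its signal was 1689, 1639 and 1533 in Ltbr-/- replicates 1, 2 and 3 and 2320, 2019 and 1918 in Ly5.1 replicates 1, 2 and 3. Each Ltbr-/- sample was below each Ly5.1 sample, and Ly5.1 replicate 1 was the highest of the 6. The means were 1621 ± 79.9 (SD, n = 3) and 2086 ± 209 (SD, n = 3), so that Notch2 fell by 22.1% in Ltbr-/- samples (log2 fold change −0.36, SE 0.09, 95% interval −0.53 to −0.19; adjusted p = 0.0025 by limma). The fold of 0.779 had an interval of 0.69 to 0.879, so a fall of 1.5-fold was outside it. An exact permutation test of the 6 values gave p = 0.1, the smallest that 3 against 3 allow. Among the 548 names that were lower past the test, whose median log2 fold change was −0.29, 86 had a larger fall than Notch2. With the variance of Notch2 taken from its own 6 values and not moderated across genes, the call was lost (adjusted p = 0.138). Without Ly5.1 replicate 1, the log2 fold change was −0.28 and the adjusted p 0.0415.

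The sequence before the start of Notch2 is shown because LTβR signals through NF-κB and this was the gene of the 8 that passed the test. It runs on the plus strand of GRCm38.p6 (RefSeq), at chr3:98013288-98013526, to the base before the annotated GENCODE transcript start, and the capitals mark the 1 match to the NF-κB consensus.

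Notch2: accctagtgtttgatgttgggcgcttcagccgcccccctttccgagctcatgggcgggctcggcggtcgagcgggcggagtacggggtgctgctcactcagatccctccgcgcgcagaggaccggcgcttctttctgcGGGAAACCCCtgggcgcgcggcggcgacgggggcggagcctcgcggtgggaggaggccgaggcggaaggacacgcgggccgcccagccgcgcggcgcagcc

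Both strands were searched for the NF-κB consensus and for TGGGAA, the core bound by Rbpj, in windows of 250 bases before each annotated start. NF-κB matches occurred in 5.0% of all 32851 RefSeq promoter windows and TGGGAA in 21.6%. Of the 6 members with an entry (none for Hes1 and Msi1), Notch2 had the NF-κB match and Rbpj had TGGGAA, and no window of Numb, Numbl, Msi2 or Notch1 held either set of letters. The Notch2 window was 72.0% G and C, against a median of 52.4% over all windows. A match is a description of the letters and not a site.

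Notch1, at chr2:26457903-26516663 on the minus strand, is the receptor best known for driving the T cell fate. It had a signal of 677, 741 and 792 in Ltbr-/- samples and 814, 682 and 734 in Ly5.1 samples, so that the 2 groups covered almost the same range. The log2 fold change was −0.01 (95% interval −0.20 to 0.18; adjusted p = 0.954), and it was 0.05 without Ltbr-/- replicate 1 or without Ly5.1 replicate 1. Part of its exons overlaps transcripts of the opposite strand, 0610009E02Rik and Gm13568, which cannot be told apart from it unless the counting used strand, and that is not stated in the sources used here. Within each sample, Notch2 lay above Notch1 by 1.32, 1.15 and 0.95 log2 units in Ltbr-/- replicates 1 to 3 and by 1.51, 1.57 and 1.39 in Ly5.1 replicates 1 to 3. The difference between the groups was −0.35 log2 units with no overlap (exact permutation p = 0.1, the smallest possible), a comparison chosen after the values had been seen.

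Msi2, the RNA-binding protein, is annotated at chr11:88339382-88718513 on the minus strand. Its signal was 1149, 1124 and 1129 in Ltbr-/- samples and 1325, 1234 and 1292 in Ly5.1 samples. All 3 Ltbr-/- samples were below all 3 Ly5.1 samples, and the Ltbr-/- samples varied least, with an SD of 13.0 around 1134 against 46.4 around 1284 (n = 3 each). The log2 fold change was −0.18 (SE 0.08, 95% interval −0.35 to −0.0064), which did not pass the correction across all names (unadjusted p = 0.0425, adjusted p = 0.166 by limma; exact permutation p = 0.1). The value of −11.6% is therefore given as a difference that was not past the test.

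Msi1, on chromosome 5, belongs to the weakly expressed members. It had a signal of 19.8, 20.9 and 18.9 in Ltbr-/- samples and 19.4, 20.7 and 19.0 in Ly5.1 samples, with a log2 fold change of 0.01 (95% interval −0.07 to 0.10; adjusted p = 0.887). The groups overlapped fully, and at this level the shrinkage of the deposited values limits what a difference could show.

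Numb, at chr12:83794034-83921934 on the minus strand, had a signal of 272, 287 and 269 in Ltbr-/- samples and 249, 256 and 281 in Ly5.1 samples. The groups overlapped, since Ly5.1 replicate 3 lay among the Ltbr-/- samples. The means were 276 ± 9.72 and 262 ± 16.7 (SD, n = 3 each), a log2 fold change of 0.07 (SE 0.09; adjusted p = 0.66 by limma; exact permutation p = 0.3). The 95% interval ran from a fold of 0.924 to 1.2, so these data leave room for a difference of either sign of that size. These are RNA values, and the distribution of Numb protein between daughter cells was not analysed here. Of the Numb exons, 166 bases overlap a transcript of the opposite strand, Gm46367, with the same limit as given for Notch1.

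Numbl, on chromosome 7, had a signal of 114, 108 and 109 in Ltbr-/- samples and 123, 111 and 109 in Ly5.1 samples. The log2 fold change was −0.05 (95% interval −0.22 to 0.11; adjusted p = 0.738), and Ly5.1 replicate 1 alone stood above the others. Numb exceeded Numbl by 1.32 ± 0.08 log2 units in Ltbr-/- and 1.20 ± 0.17 in Ly5.1 samples (SD, n = 3 each), which overlapped (exact permutation p = 0.4; this pair was chosen after the values had been seen).

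The balance of Numb and Msi2 within a sample, the log2 of Numb minus the log2 of Msi2, was −2.08, −1.97 and −2.07 in Ltbr-/- replicates 1 to 3 and −2.41, −2.27 and −2.20 in Ly5.1 replicates 1 to 3. It was higher in each Ltbr-/- sample than in any Ly5.1 sample, by 0.25 log2 units on average. The exact permutation test gave p = 0.1, the smallest that 3 against 3 can give, so no comparison of this kind can pass 0.05 here. A ratio within a sample does not depend on how samples were scaled to each other by a common factor, and it does not say which of the genes moved.

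**Figure D2:**
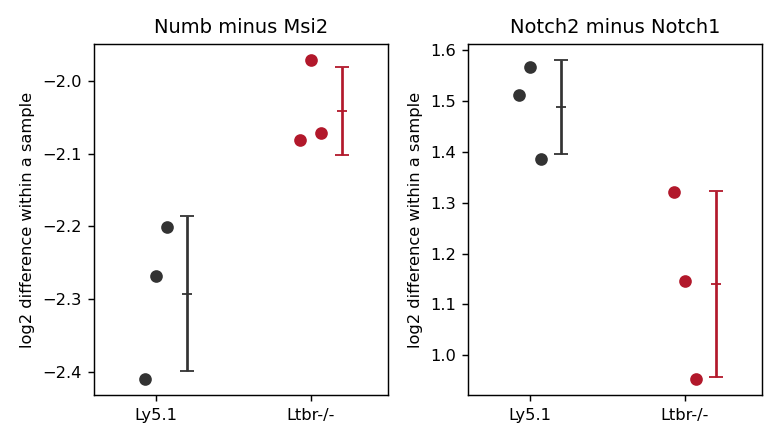
Log2 differences within each sample, Numb minus Msi2 on the left and Notch2 minus Notch1 on the right, for 3 Ly5.1 (black) and 3 Ltbr-/- (red) samples, with mean and SD beside the points. The groups did not overlap in either panel, with mean differences of 0.25 and −0.35. Msi2 and Notch2 alone also did not overlap between the groups.

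Rbpj, the nuclear partner of Notch, lies on chromosome 5 and had a signal of 172, 162 and 169 in Ltbr-/- samples and 159, 176 and 189 in Ly5.1 samples. The groups overlapped, with the lowest and the highest of the 6 values both in Ly5.1, and the log2 fold change was −0.06 (95% interval −0.24 to 0.13; adjusted p = 0.744). Of the stretches of 76 bases, the read length, in its longest coding transcript, 21.0% also occur in the pseudogene Rbpj-ps3, so its value is uncertain by reads that the authors' counting could have split. The share was 3.12% for Notch2, shared with Gm42820, and 0.37% for Numbl, and 0 for the other members.

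Hes1, a target of Notch, lies on chromosome 16. Its signal was 34.3, 37.0 and 32.7 in Ltbr-/- samples and 35.6, 37.6 and 35.0 in Ly5.1 samples, with overlapping groups and a log2 fold change of −0.06 (95% interval −0.17 to 0.05; adjusted p = 0.537). It is a low-level member, for which fold changes are understated.

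**Figure D3:**
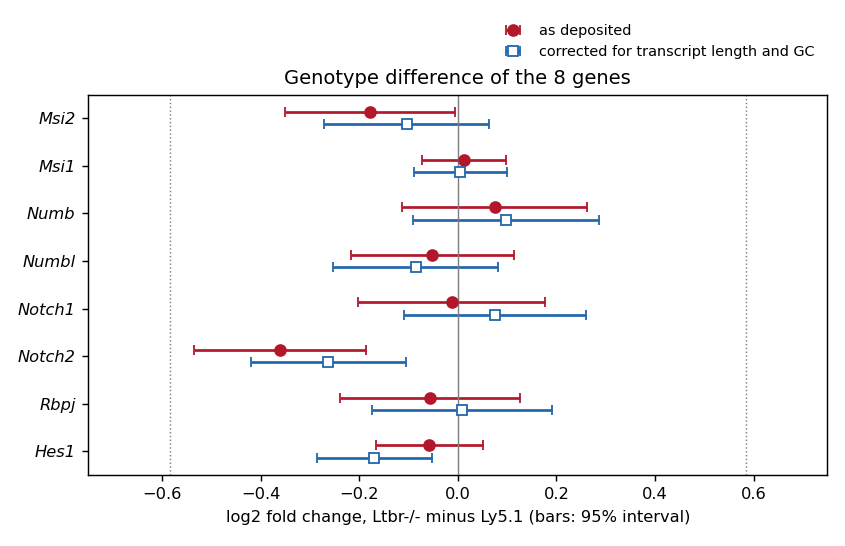
Log2 fold change, Ltbr-/- minus Ly5.1, of the 8 genes with 95% intervals (3 samples in each group), as deposited (red) and after a correction for transcript length and GC content (blue, open), with dotted lines at a fold of 1.5. The interval lay below 0 for Notch2 under both, for Msi2 as deposited and for Hes1 after the correction, and no interval reached a fold of 1.5.

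Levels between genes were compared per kilobase of the longest coding transcript, as signal per kb in the Ly5.1 samples. Msi2 had 200 ± 7.21 and Notch2 had 199 ± 19.9 (SD, n = 3), near the 62.6th and 62.5th percentile of the tested names. Notch1 followed at 78.3 ± 6.99 and Numb at 73.9 ± 4.72, then Numbl at 41.4, Rbpj at 31.8, Hes1 at 24.6 and Msi1 at 6.29. Over all 6 samples the ranges of Msi2 and Notch2 overlapped, as did those of Notch1 and Numb, while the other neighbours in this order were apart. The 2 most abundant members, one from each of the Musashi and Notch families, were also those whose groups did not overlap, while Msi1 was in the lowest 3.26% of the tested names.

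The genotype difference of all names moved with the length of the transcript. The 11894 names with a length were put into 10 classes of like size by length. From the shortest class, 102 to 1276 bases, to the longest, 6632 to 123179 bases, the median log2 fold change went from 0.14 to −0.09, and 9.66% of the longest class were lower past the test against 1.68% of the shortest. Notch2, with 10500 bases, and Notch1, with 9488, lay in the longest class, and Msi2, with 6436, and Rbpj, with 5485, in the ninth. Notch2 was lower than the median of its class by more than Msi2 was, with 0.588% of the names of the longest class below it. After a loess correction for length and GC content, which was added once the data had been seen, Notch2 was at −0.26 (SE 0.08; adjusted p = 0.0151), Msi2 at −0.10 (adjusted p = 0.468) and Hes1 at −0.17 (adjusted p = 0.0401), which then passed. Hes1, in the second class with a median of 0.06, was at −0.06 as deposited with overlapping groups, so its call arose with the correction. Notch1 and Rbpj turned to 0.08 and 0.0086, neither past the test. The part of length in the values as deposited was not tested.

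**Figure D4:**
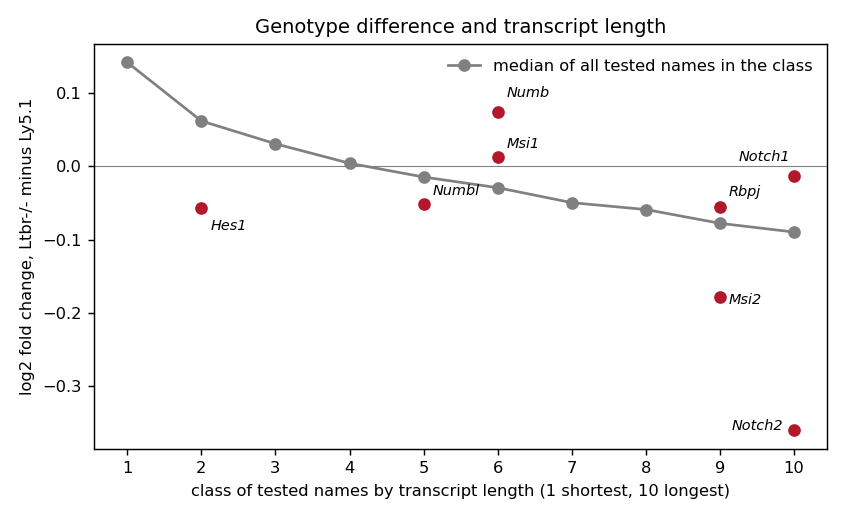
Median log2 fold change, Ltbr-/- minus Ly5.1, of all tested names in each of 10 classes by transcript length (grey) and the values of the 8 genes in their class (red). The medians went from 0.14 in the shortest to −0.09 in the longest class, and Notch2 at −0.36 lay farthest of the 8 from the median of its class.

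Ribosomal protein genes had a median signal of 10130 to 11040 in Ltbr-/- and 5324 to 6368 in Ly5.1 samples. With each sample centred on these genes, the median over all tested names shifted to −0.89, and all 8 members were lower past the test, Numb and Msi1 included, which had been above 0. Such centring moves every gene by the same amount, so differences between genes cannot change under it. Relative to the median of all tested names, Notch2 was at −0.35, Msi2 at −0.17 and Numb at 0.09 with or without it. Directions are stated here relative to that median.

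Around these genes, 8 lists of the pathway held 88 tested names, of which 4 were higher and 5 lower past the test, with a median of −0.05. These are 4.55% and 5.68%, against 10.6% and 4.18% of all tested names, so the lower share is near that of all names and the higher share below it. Without the 8 members, 80 names held 4 higher and 4 lower, and 0 reached a fold of 1.5, while against ribosomal protein genes 0 of the 80 were higher and 80 lower. Among these 80, leaving out Ltbr-/- replicate 1, 2 or 3 left 2, 0 and 0 higher and 3, 2 and 0 lower, and leaving out Ly5.1 replicate 1, 2 or 3 left 2, 0 and 4 higher and 3, 2 and 3 lower, so these counts depended on single samples. Notch2, which is not among the 80, was lower past the test without each of the 6 samples in turn.

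Of the 4 receptors, 3 were tested and Notch2 was the 1 past the test. Notch3 had a signal of 75.8 to 83.2 in Ltbr-/- and 76.5 to 82.4 in Ly5.1 samples, and Notch4, at 4.70 to 4.97 over the 6 samples, was below the filter. Among the 5 ligands, 3 were tested and none passed, with Jag2 at −0.06 (208 to 231 against 211 to 251) and Dll4 at −0.02 (adjusted p = 0.774), while Dll1 and Dll3 were at or under 1 in every sample.

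Maturation and cleavage of the receptors gave calls on both sides among 14 tested genes (2 higher, 1 lower, median −0.0032). These counts are 14.3% and 7.14% of the list, against 10.6% and 4.18% of all tested names. Adam10, the protease that makes the first cut after ligand binding, had 2058 to 2156 in Ltbr-/- and 2477 to 2675 in Ly5.1 samples (log2 fold change −0.28, adjusted p = 0.0137). Psenen, a subunit of γ-secretase, which makes the next cut, had 308 to 355 against 243 to 291 (0.34, adjusted p = 0.013), and Furin, which cleaves the receptor precursor, had 1498 to 1671 against 1175 to 1369 (0.31, adjusted p = 0.0131). The groups did not overlap for any of these 3 genes, and the directions are relative to the median of all names. After the length and GC correction, 1 gene of this list was higher past the test and 3 were lower. The higher count was 0 without Ltbr-/- replicate 2, Ltbr-/- replicate 3 or Ly5.1 replicate 2. The lower count was 0 without Ltbr-/- replicate 3 or Ly5.1 replicate 2.

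Of 11 tested genes of Notch ubiquitination and endocytosis, 0 passed (Itch −0.19, adjusted p = 0.228; Mib1 −0.14, adjusted p = 0.344). In the Rbpj nuclear complex of coactivators and corepressors, 17 of 20 tested genes were below 0 (median −0.09), against 53.6% of all tested names. The part of transcript length in this list was not tested. The corepressor Ctbp1 alone passed, at 2500 to 2609 in Ltbr-/- against 2813 to 3374 in Ly5.1 samples (−0.24, adjusted p = 0.0431). The Notch targets held 9 tested genes of 16, of which 2 were higher past the test relative to the median of all names, the stem cell transcription factor Gata2 (4554 to 4731 against 3813 to 4259; 0.22, adjusted p = 0.0402) and Myc (3937 to 4191 against 3350 to 3731; 0.22, adjusted p = 0.0443). Gata2 is also one of the HSC markers counted above. The count of 2 stood against 10.6% of all tested names, and it fell to 0 without any 1 sample other than Ly5.1 replicate 3. It was also 0 with no filter, with quantile normalization, without the variance trend and without moderation. Of the other Notch targets, Gata3 was lower without overlap (174.9 to 187.7 in Ltbr-/- against 201.5 to 210.3 in Ly5.1; −0.16, adjusted p = 0.23). Il2ra was higher without overlap (46.41 to 49.82 against 43.05 to 45.63; 0.11, adjusted p = 0.20). Hes6 (0.19) and Ccnd1 (0.03) had overlapping groups, and none of these genes passed the test. Nrarp was at 24.3 to 27.6, Hes5 at 5.61 to 6.00 and Hey1 at 2.71 to 2.76 over the 6 samples, and Hey2 and Heyl were listed at 1.

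Of 20 tested genes of cell polarity and asymmetric division, 2 passed, both lower (10.0%, against 4.18% of all tested names). Leaving out any 1 sample left at most 1 lower call in this list, and 0 without Ltbr-/- replicate 3 or Ly5.1 replicate 3. Gpsm2, which links the cell cortex to the mitotic spindle, had 318 to 376 in Ltbr-/- against 389 to 464 in Ly5.1 samples (−0.31, adjusted p = 0.0264). Numa1, its spindle partner, had 6242 to 6855 against 6846 to 8011, with overlapping groups (−0.21, adjusted p = 0.0462). Among 9 tested RNA-binding proteins of stem cells, 0 passed and the median was −0.10, with Syncrip at −0.16 (adjusted p = 0.22) beside Msi2. In this list 8 genes were below 0 (88.9%, against 53.6% of all tested names), and the part of transcript length was not tested. With quantile normalization, 2 genes of this list were lower past the test.

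**Figure D5:**
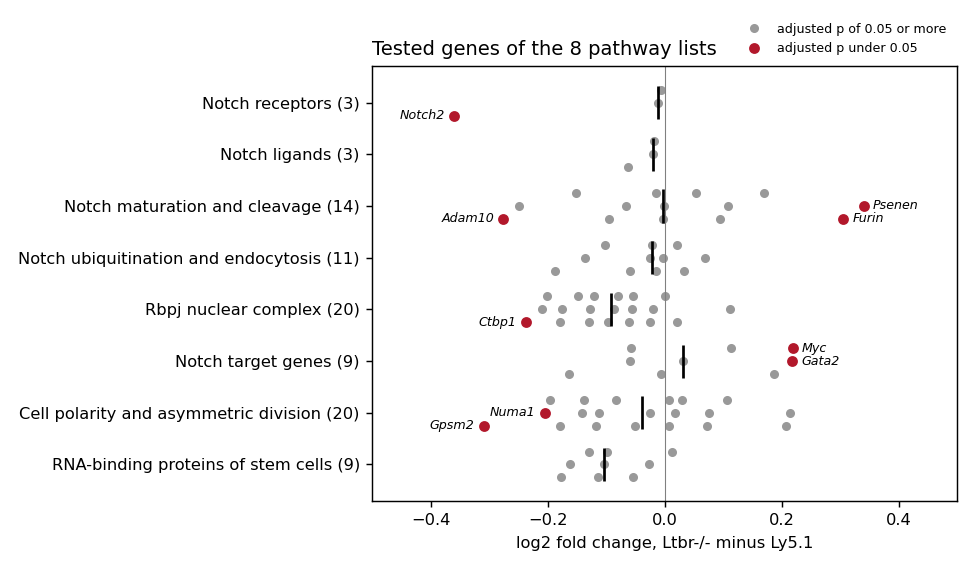
Log2 fold change, Ltbr-/- minus Ly5.1, of the tested genes of the 8 pathway lists (number tested in brackets), with adjusted p under 0.05 in red and the median of each list as a bar. The 4 higher calls were Psenen, Furin, Gata2 and Myc and the 5 lower calls Notch2, Adam10, Ctbp1, Gpsm2 and Numa1, relative to the median of all names and with none higher against ribosomal protein genes.

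The names whose pattern over the 6 samples was closest to that of Notch2, by mean absolute difference of centred log2 values, were Pds5b (0.0238), Rapgef2 (0.0307) and Etv6 (0.0332). For Msi2 they were Ly6c2 (0.0125), BC053749 and LOC671650, for Numb 2310010J17Rik (0.0135), Kank1 and 2410127L17Rik, and for Hes1 Gm7664 (0.0081), Nabp1 and Tef.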

How the data were processed

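RNA of FACS-purified LT/ST-HSCs was sequenced by the authors from stranded mRNA libraries in single reads of 76 bases. Reads were assembled with SeqMan NGen and quantified with ArrayStar, and the submitters' processing notes name GRCm38 and DESeq2. For each sample the authors deposited 1 value per gene, a signal that is never negative; that it is 2 to the power of a regularized log was judged from the values. Counts are not given, so the depth behind a value is unknown from the files (the study's methods give only a mean number of reads per sample), and precision rests on 3 samples per group; the labels name no batch.

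Of 26595 values per sample, 26216 names were kept (the row with the highest mean for 75 repeated names). Names in the upper 50% by mean (13108) were tested on log2(signal) with limma 3.58.1 in R 4.3.3 (lmFit, eBayes with trend, Benjamini-Hochberg); single values were compared by an exact two-sided permutation test. Transcript lengths, GC content and positions came from GENCODE M21 (GRCm38), and the correction used loess of span 0.5 and degree 1. The limma p-values rest on the spread between these pooled samples, with the variance of each gene moderated across all tested names unless stated otherwise. The alternatives were other filters, scalings, variance models and thresholds, a pseudocount of 1, the replicate number as a block, and leaving out each sample.

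Named genes were the 8 members, Ltbr, up to 4 genes per list with the smallest p past the test (or, with none, the 2 with the largest change) and the 3 names nearest in pattern; other genes were chosen after their values were seen. The 8 members and all lists were chosen with earlier results of these data known. 1 gene of the maturation and cleavage list is not reported here.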

Additional observations from a re-analysis of the deposited data

How the results depend on the processing

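Of the member values, Notch2 kept its direction in all alternatives and its adjusted p under 0.05 in all but the variance without moderation (−0.36, adjusted p = 0.138; 0 members lower, and, of the 80 other pathway genes, 0 lower and 0 higher). Other filters, other variance models, the replicate block and the mean of repeated rows could not change the log2 fold change of a member. Those settings therefore bear on the adjusted p and not on the direction. Msi2 stayed lower and past no threshold, except when centred on ribosomal protein genes. That centring gave Numb −0.80, Numbl −0.93, Msi1 −0.86, Msi2 −1.05, Notch1 −0.89, Hes1 −0.93 and Rbpj −0.93, with 8 members lower, 0 pathway genes higher and 80 lower, by a shift of all names. The length and GC correction, added after the data were seen, gave Notch1 0.076, Rbpj 0.0086, Hes1 −0.17, 2 members lower and 2 pathway genes higher. Requiring a fold of 1.5 as well left 0 members, Notch2 included.

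Pathway genes higher and lower numbered 2 and 2 without a filter, 2 and 7 with quantile normalization, and 2 and 2 without the variance trend; why was not tested. Leaving out each sample gave ranges of −0.086 to 0.0018 for Numbl, −0.025 to 0.050 for Msi1, −0.073 to 0.055 for Notch1, −0.12 to 0.0014 for Rbpj, 0 to 4 pathway genes higher and 0 to 3 lower.

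With the replicate number as a replicate block, Notch2 had an adjusted p of 0.0019 and Msi2 0.15, with 1 member lower. Same-numbered samples deviated together with correlations of 0.03, −0.0052 and 0.09, and not every sample correlated best with its own number, so the numbers were not used as pairs; whether same-numbered samples came from the same chimeras is not given in the labels. The stricter filter of the upper 25% gave no value for Numb, Numbl, Msi1, Hes1 and Rbpj, which lie below it. The files hold no counts, so a limit set by depth could not be computed; the regularized values understate changes of Msi1 and Hes1.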
